A study of Gallus gallus with 24 samples.

Results

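The lysosomal genes described here are a list of 40 symbols for lysosomal enzymes, membrane proteins, proton pump subunits and a regulator. Rows of the normalized count table were taken when their symbol was on the list and their mean over all 24 libraries was at least 10. This gave 37 genes of 24356 rows, and all 37 rows found passed the filter on low values. GAA, MAN2B1 and NEU1 had no row under their symbol and were not analysed here. By role the 37 are 8 proteases, 9 enzymes that cut sugar chains or their sulfates, 8 lipid-handling proteins, 5 membrane proteins, 6 proton pump genes and the regulator TFEB.

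The study cultured pieces of retinal pigment epithelium (RPE), the pigmented layer behind the neural retina, cut from eyes of day 4 chicken embryos. It asked how metabolic activity bears on RPE fate when the tissue is reprogrammed, and polyA RNA was sequenced. The 8 groups are explants kept for 24 h or 48 h in maintenance medium (control), with 10 ng/ml fibroblast growth factor 2 (FGF2), with 20 mM dichloroacetate (DCA), or with both. FGF2 is a secreted growth factor that drives embryonic chick RPE toward neural retina, and DCA inhibits pyruvate dehydrogenase kinases, which favours the entry of pyruvate into mitochondria. Each group has 3 biological replicates of 3 pooled explants, from specific pathogen free chickens with no genetic change. A library is therefore a mixture of all cells that an explant holds, and fewer cells of a type cannot be told apart from less RNA per cell.

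Lysosomes are acidic organelles in which proteases, glycosidases, sulfatases and lipases break down material delivered by endocytosis, phagocytosis and autophagy. A proton pump in the membrane, the V-ATPase, keeps the lumen acidic, and TFEB and its relative MITF are transcription factors that switch on many lysosomal genes together. In the mature eye the RPE is among the most active phagocytic tissues, since it digests the shed tips of photoreceptors, and its pigment granules are relatives of lysosomes.

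Whole reads recovered from the normalized counts ranged from 32.82 M to 72.72 M (mega-reads) per library. The deepest 2 libraries were the third FGF2 replicates at each time, and the other 22 held at most 47.07 M. Replicates of a group correlated at r = 0.9588 to 0.9804 on the log2 scale. Beside the label of the tissue, 19 RPE and melanosome markers were read. All 19 passed the filter, and they summed to 210388 to 247671 normalized counts in the controls at 24 h. In the same libraries periocular mesenchyme markers summed to 153698 to 164562 and red blood cell markers to 94523 to 129507. The RPE markers thus do not show that the explants held RPE alone. Log2 fold changes below are on the log2(normalized count + 1) scale, with the standard error (SE) from limma. A gene is called when its Benjamini-Hochberg adjusted p over all 15001 genes tested is under 0.05. The p-values measure the spread between replicates of a group, pooled over all 8 groups in 1 model, and not that of the compared groups alone.

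Summed over the 37 genes, the share of all normalized counts at 24 h was 0.718% in the control explants and 0.634% with FGF2. It was 0.654% with DCA and 0.672% with both agents at that time. At 48 h it was 0.797% in the controls, 0.482% with FGF2, 0.984% with DCA and 0.752% with both agents. The lowest group was FGF2 at 48 h, where the sum ran from 183704 to 202759 normalized counts, and the highest was DCA at 48 h, from 351761 to 423820. These ranges do not overlap with those of the other 48 h groups. Cathepsin D (CTSD), the main aspartic protease of the lysosome, carried much of the DCA value. Without CTSD the sum was 190720 to 217422 in the DCA libraries and 204877 to 219595 in the controls at 48 h, which overlap. With FGF2 at 48 h it was 145474 to 156784 without CTSD, still below the controls. At 24 h the sum without CTSD was 175016 to 184198 in the controls and 175405 to 188296 with FGF2, which overlap.

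**Figure D1:**
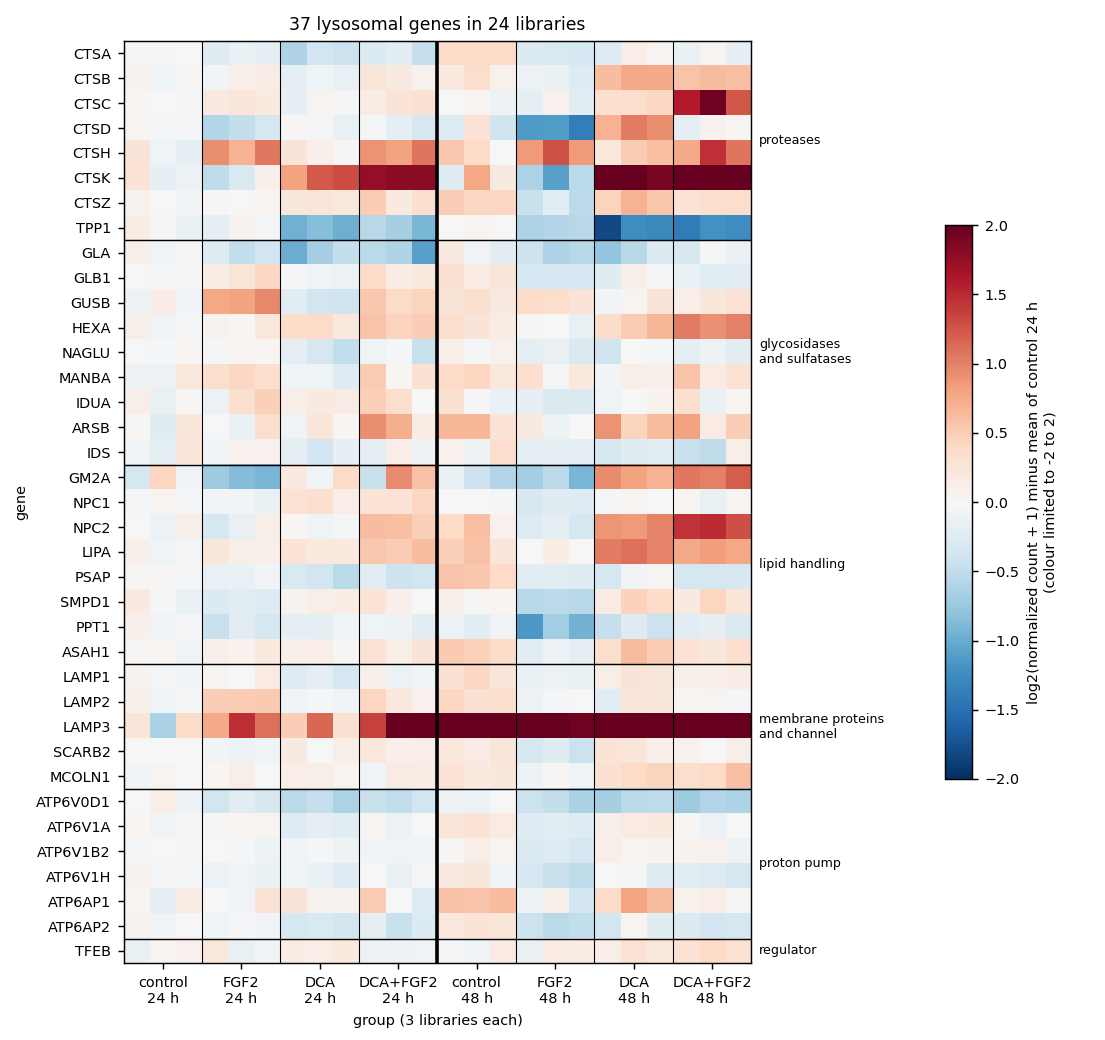
Heat map of the 37 lysosomal genes (vertical axis, grouped by role) in the 24 libraries (horizontal axis, 3 per group, 24 h left of the heavy line). Colour is log2(normalized count + 1) minus the mean of the control libraries at 24 h, limited to -2 to 2. The FGF2 columns at 48 h are mostly blue, CTSK is red and TPP1 blue wherever DCA was given, LAMP3 is red in all libraries at 48 h, and CTSC is deep red in the DCA+FGF2 libraries at 48 h alone.

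Time in culture was compared first, because it moved these genes without any agent. Between 24 h and 48 h in maintenance medium, 18 of the 37 genes rose and 0 fell, where 9.69% of all genes tested were called higher, 7.30% lower and 17.0% in either direction. The median log2 change was 0.24, against 0.01 for all genes tested. All 5 membrane proteins rose, as did 4 of 8 lipid-handling genes, 3 of 8 proteases, 3 of 9 sugar-chain enzymes and 3 of 6 pump genes.

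LAMP3, a lysosome membrane glycoprotein that is low in most tissues, was read at 23, 12 and 26 normalized counts at 24 h and at 89, 92 and 87 at 48 h. Its 48 h values all lie above the 24 h values (2.12 ± 0.33 SE, adjusted p = 0.00012). Prosaposin (PSAP), the precursor of the saposins that help lipases reach sphingolipids, was at 22698, 22881 and 21747 and then at 33398, 32637 and 29489 (0.50 ± 0.08, adjusted p = 0.00012). Acid ceramidase (ASAH1) was at 6754, 6860 and 6369 and then at 9576, 9128 and 8633 (0.45 ± 0.07, adjusted p = 7.7e-05). In each of these the time points do not overlap. LIPA, the acid lipase for cholesterol esters and triglycerides, went from 4503, 3945 and 4114 to 5841, 6265 and 4932 (0.43 ± 0.07, adjusted p = 0.00025). The carboxypeptidase cathepsin Z (CTSZ) went from 5451, 5130 and 4986 to 7277, 6900 and 6918 (0.44 ± 0.08, adjusted p = 0.0004). LAMP1, an abundant glycoprotein of the lysosome membrane, went from 10593, 9896 and 9675 to 12384, 13334 and 11911 (0.32 ± 0.06, adjusted p = 0.0011). These are separate as well.

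Many of the smaller rises were called close to the threshold. Of the 18 calls 9 ended in at least 1 fit that left out a library. Without the first control replicate at 48 h 9 of the 37 genes were called, without the second at 24 h 11, and against a null of a 1.2-fold change 1 was called. Of the other lysosomal genes 9 of 30 hydrolases rose and 1 fell, 6 of 24 membrane proteins rose and 3 of 16 V-ATPase subunits rose. Macrophage markers rose over the same time, 11 of 14 called higher and 1 lower, from a summed 11705 to 13628 normalized counts at 24 h to 25262 to 32474 at 48 h. Of 14 mesenchyme markers 4 rose and 2 fell, with sums of 153698 to 164562 at 24 h and 314341 to 372027 at 48 h. Of 8 red blood cell markers 1 rose and 4 fell, and of 9 endothelial markers 0 rose and 1 fell. Of 19 RPE and melanosome markers 3 rose and 0 fell, and of 11 retinal progenitor markers 1 rose and 2 fell. The part of these cells in the rise of the lysosomal genes was not tested.

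After 24 h of FGF2 the lysosomal genes moved in both directions. Of the 37, 6 rose and 5 fell, together 29.7%, where 29.8% of all genes tested were called, so the share is near the background. The median log2 change was 0.03, against -0.01 for all genes. The risers were 3 sugar-chain enzymes, GUSB, MANBA and GLB1, with LAMP2, LAMP3 and cathepsin H (CTSH). The fallers were 3 lipid-handling genes, GM2A, PPT1 and SMPD1, with CTSD and the pump subunit ATP6V0D1.

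Beta-glucuronidase (GUSB), which removes glucuronic acid from glycosaminoglycans, was at 2510, 2990 and 2579 normalized counts in the controls and at 4611, 4666 and 5209 with FGF2. It had the smallest adjusted p of the 37 (0.84 ± 0.08, adjusted p = 8.4e-08), and the groups do not overlap. CTSH, a cysteine protease that acts mainly as an aminopeptidase, was at 3332, 2635 and 2470 and with FGF2 at 5337, 4514 and 5765 (0.89 ± 0.17, adjusted p = 0.00027). LAMP2, the membrane protein that also serves as the receptor of chaperone-mediated autophagy, was at 3114, 2760 and 2866 and with FGF2 at 4093, 4160 and 4202 (0.51 ± 0.09, adjusted p = 0.00022). For CTSH and LAMP2 too every FGF2 library lay above every control.

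Among those that fell, ATP6V0D1, a subunit that links the membrane sector of the pump to its stalk, was at 6631, 7345 and 6141 in the controls and at 5182, 5759 and 5344 with FGF2 (-0.30 ± 0.07, adjusted p = 0.0023). PPT1, which removes palmitate from proteins, was at 6595, 5849 and 6012 and with FGF2 at 4518, 5296 and 4867 (-0.33 ± 0.09, adjusted p = 0.0059). CTSD was at 104211, 97362 and 98529 and with FGF2 at 66850, 71610 and 78794 (-0.47 ± 0.13, adjusted p = 0.01). In these the FGF2 libraries all lie below the controls. The calls of SMPD1, GLB1, GM2A, MANBA, CTSD and LAMP3 each ended when a single library was left out, with adjusted p up to 0.17, 0.082, 0.083, 0.13, 0.052 and 0.092. The libraries were the third FGF2 replicate for GLB1, the first for CTSD, the second control replicate for GM2A and more than 1 library for the others. Against a null of a 1.2-fold change 2 of the 37 were called. Markers of other cells had already moved at 24 h: 8 of 14 macrophage markers fell and 0 rose, with sums of 11705 to 13628 in the controls and 6849 to 8746 with FGF2, and 12 of 14 mesenchyme markers fell and 0 rose. Their part was not tested.

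After 48 h of FGF2 most of the lysosomal genes were lower. Of the 37, 27 fell and 1 rose, where 27.7% of all genes tested were called lower and 54.6% were called in either direction. The median log2 change was -0.45, against -0.02 for all genes tested, and 34 of 37 estimates were negative. Of all genes tested 48.8% had a positive estimate. All 6 proton pump genes fell, as did 7 of 8 lipid-handling genes, 6 of 8 proteases, 4 of 5 membrane proteins and 4 of 9 sugar-chain enzymes. Leaving out any 1 library of the pair of groups gave 26 to 29 called.

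CTSZ had the smallest adjusted p, at 7277, 6900 and 6918 normalized counts in the controls and 3813, 4439 and 3618 with FGF2 (-0.83 ± 0.08, adjusted p = 7e-09). PSAP was at 33398, 32637 and 29489 and with FGF2 at 19286, 19211 and 18687 (-0.74 ± 0.08, adjusted p = 5.1e-08). ASAH1 was at 9576, 9128 and 8633 and with FGF2 at 5773, 6154 and 5793 (-0.62 ± 0.07, adjusted p = 6.9e-08). In each the FGF2 libraries form a tight cluster well under the controls.

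PPT1 was at 5639, 5297 and 5840 in the controls and at 2775, 3788 and 3199 with FGF2 (-0.79 ± 0.09, adjusted p = 1.1e-07). Of the pump genes, ATP6V1A, which carries the sites that hydrolyse ATP, was at 10134, 10328 and 9620 and with FGF2 at 7190, 7393 and 7143 (-0.47 ± 0.05, adjusted p = 6e-08). ATP6AP2, the accessory protein also known as the prorenin receptor, was at 9363, 9725 and 9523 and with FGF2 at 6005, 5588 and 5753 (-0.72 ± 0.08, adjusted p = 6.9e-08). None of these groups overlap. The other 4 pump genes had log2 changes of -0.72 for ATP6AP1, -0.55 for ATP6V1H, -0.43 for ATP6V0D1 and -0.36 for ATP6V1B2.

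Other large falls were those of CTSD (-1.09 ± 0.13), the collagen-cutting protease cathepsin K, CTSK (-0.98 ± 0.20), cathepsin A, CTSA (-0.69 ± 0.08), which protects beta-galactosidase, and NPC2 (-0.62 ± 0.11), the soluble protein that hands cholesterol to NPC1. The 1 gene that rose was CTSH, at 4062, 3630 and 2788 in the controls and 5017, 6767 and 5012 with FGF2 (0.68 ± 0.17, adjusted p = 0.0015). The 9 not called were CTSC, GUSB, NAGLU, MANBA, IDUA, IDS, GM2A, LAMP3 and TFEB. TFEB was at 781, 769 and 899 in the controls and 724, 904 and 891 with FGF2, which overlap (0.04, 95% interval -0.18 to 0.26, adjusted p = 0.78). GLA and ARSB were called lower with adjusted p of 0.014 and 0.029, and lost the call in 1 (the first control replicate) and 4 of the 6 fits that left out a library.

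**Figure D2:**
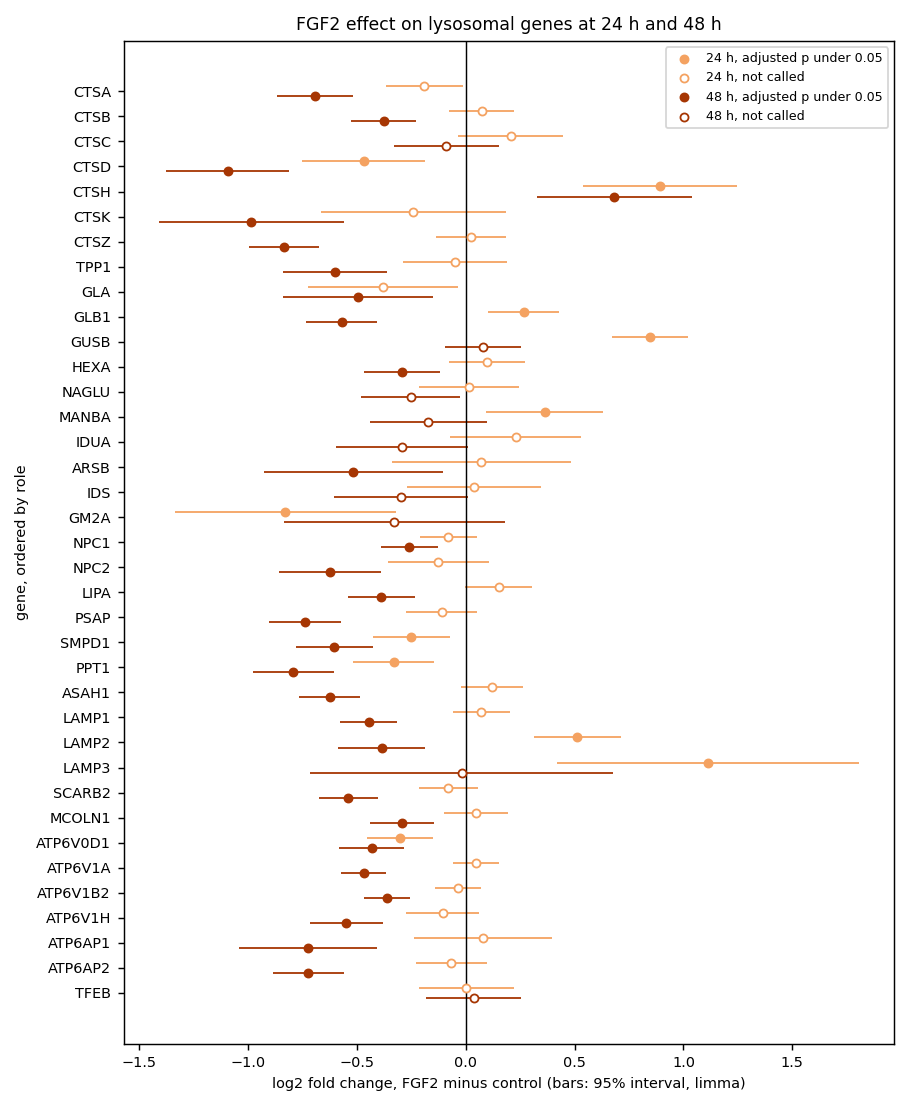
Log2 fold change of FGF2 against control (horizontal axis) for the 37 genes (vertical axis, ordered by role) at 24 h in pale and 48 h in dark orange. Bars are 95% intervals, and filled points have an adjusted p under 0.05. The 24 h points scatter around 0, while 34 of the 48 h points lie left of it, and CTSH is the 1 filled dark point on the right.

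The change in the FGF2 effect between 24 h and 48 h was tested directly. It was more negative at 48 h for 24 of the 37 genes and more positive for 0, where 15.4% of all genes tested had a more negative effect and 30.2% differed in either direction. The median difference was -0.50 on the log2 scale, against 0.00 for all genes. For LAMP2 the effect went from 0.51 to -0.38 (difference -0.90 ± 0.13, adjusted p = 3.4e-05). For beta-galactosidase (GLB1) it went from 0.27 to -0.57 (difference -0.84 ± 0.11, adjusted p = 8.3e-06). GUSB went from 0.84 to 0.08 (difference -0.76 ± 0.12), so its rise at 24 h was not seen at 48 h, when its 3 FGF2 libraries read 3504, 3436 and 3221 against 3226, 3340 and 3047 in the controls. This comparison, the control time course and the FGF2 effect at 48 h all use the same control libraries at 48 h. Without both deepest libraries the difference was no longer called for SMPD1, ATP6AP1, NPC2, HEXA, MANBA and CTSD, with adjusted p up to 0.14.

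Genes of the wider pathway were counted in the same way at 48 h of FGF2. Of 30 other lysosomal hydrolases 18 fell and 4 rose, of 24 other lysosomal membrane proteins 14 fell and 2 rose, and of 16 other V-ATPase subunits 11 fell and 0 rose. Of 23 autophagy genes 15 fell and 1 rose. The autophagy receptor SQSTM1 was at 3510, 3686 and 3586 in the controls and 1811, 1790 and 1829 with FGF2 (-0.99 ± 0.07, adjusted p = 1.4e-10), which do not overlap. WIPI1, which binds the growing autophagosome membrane, was also lower (-0.58 ± 0.04, adjusted p = 4.2e-10), and so was IGF2R, the mannose 6-phosphate receptor that delivers new enzymes (-0.69 ± 0.08). Of 15 genes of enzyme delivery 6 fell and 1 rose, and the riser was GNPTAB (0.57 ± 0.08), which makes the mannose 6-phosphate tag. Among 13 MiT/TFE and nutrient-sensing genes 3 fell and 3 rose. MITF fell (-0.61 ± 0.12, adjusted p = 0.0002), as did its relative TFEC, from 744, 623 and 728 to 96, 58 and 99 normalized counts (-3.07 ± 0.28, adjusted p = 8.2e-09). LAPTM4B, a membrane protein of late endosomes, was 1 of the 2 other membrane proteins that rose (2.12 ± 0.14, adjusted p = 4.6e-11).

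Markers of other cells moved as well at 48 h of FGF2. Macrophage markers fell in 12 of 14 cases and rose in 0, and their summed level was 25262 to 32474 in the controls and 11383 to 12959 with FGF2. Periocular mesenchyme markers fell in 14 of 14, from sums of 314341 to 372027 to sums of 61138 to 72068, and 9 of 9 endothelial and 7 of 8 red blood cell markers fell. All 19 RPE and melanosome markers fell, with sums of 257203 to 273471 in the controls and 64439 to 93607 with FGF2, while 11 of 11 neural retina progenitor markers rose. None of the marker genes was at 0 in every library. The part of these cells in the fall of the lysosomal genes was not tested.

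**Figure D3:**
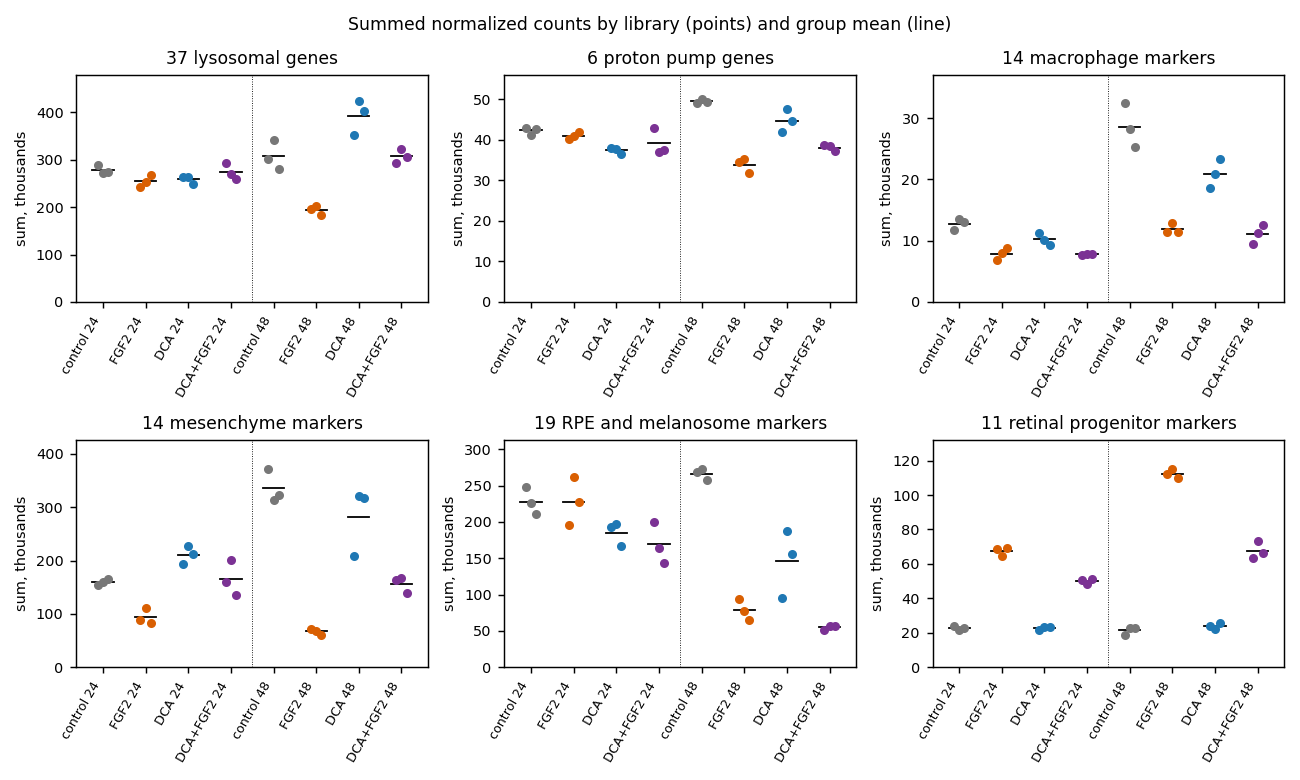
Summed normalized counts (vertical axis, in the scale of its label) per library (points) and as group means (lines) for the 37 lysosomal genes, the 6 pump genes and 4 marker lists in the 8 groups (horizontal axis). At 48 h the lysosomal, mesenchyme, macrophage and RPE sums are all lower with FGF2 than in the controls, and the retinal progenitor sum is higher. With both agents the lysosomal sum is back in the range of the controls, whereas the pump, mesenchyme, macrophage and RPE sums are below the controls.

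DCA alone split the list. At 24 h 5 of the 37 genes rose and 10 fell, where 10.6% of all genes tested were called higher, 9.48% lower and 20.1% in either direction. The median log2 change was -0.05, against -0.01 for all genes. The risers were CTSK, CTSZ, HEXA, NPC1 and LIPA, and the fallers included 3 pump genes (ATP6V0D1, ATP6V1A and ATP6AP2) and 3 sugar-chain enzymes (GLA, GUSB and NAGLU).

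TPP1, a tripeptidyl peptidase whose loss in humans causes a childhood form of neuronal ceroid lipofuscinosis, was at 13115, 11669 and 10841 in the controls and at 6057, 6596 and 5996 with DCA (-0.93 ± 0.11, adjusted p = 9.2e-06). ATP6V0D1 was at 6631, 7345 and 6141 and with DCA at 4614, 4878 and 4376 (-0.53 ± 0.07, adjusted p = 2.4e-05). CTSA was at 7708, 7419 and 7651 and with DCA at 4988, 5820 and 5642 (-0.47 ± 0.08, adjusted p = 0.0004). None of these groups overlap. PSAP was at 22698, 22881 and 21747 and with DCA at 18097, 17160 and 15422 (-0.41 ± 0.08, adjusted p = 0.00073). ATP6AP2 was at 8486, 7737 and 8060 and with DCA at 6357, 6519 and 6304 (-0.34 ± 0.08, adjusted p = 0.0035). Both again separate the groups. LAMP1 (-0.27 ± 0.06, adjusted p = 0.0044) and alpha-galactosidase, GLA (-0.71 ± 0.16, adjusted p = 0.0037), also fell.

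CTSK went the other way. It was at 2320, 1705 and 1774 in the controls and at 3329, 4495 and 4748 with DCA at 24 h, with no overlap (1.11 ± 0.20, adjusted p = 0.0005). The other 4 risers were smaller, from 0.22 for LIPA to 0.32 for HEXA. CTSZ (adjusted p = 0.041), LIPA (0.032) and the lower call of NAGLU (0.03) each ended in 5 of the 6 fits that left out a library, with adjusted p up to 0.13, 0.13 and 0.14. Against a null of a 1.2-fold change 3 of the 37 were called. Beside these calls 6 of 14 macrophage markers fell and 1 rose, with sums of 11705 to 13628 in the controls and 9339 to 11299 with DCA, and 6 of 19 RPE and melanosome markers fell and 0 rose. Their part was not tested.

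At 48 h of DCA 9 of the 37 genes rose and 10 fell, where 16.9% of all genes tested were called higher, 17.1% lower and 34.1% in either direction. The median was 0.00, against -0.03 for all genes. By role the 9 risers were 4 proteases (CTSK, CTSD, CTSB and CTSC), 4 lipid-handling genes (GM2A, LIPA, NPC2 and SMPD1) and HEXA. The 10 fallers included TPP1, CTSA, 3 pump genes (ATP6V0D1, ATP6AP2 and ATP6V1H) and LAMP2.

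TPP1 was at 11743, 12321 and 11743 in the controls and at 3398, 5006 and 4861 with DCA (-1.45 ± 0.11, adjusted p = 1.1e-08). CTSK was at 1615, 3273 and 2168 and with DCA at 7640, 8415 and 7164 (1.78 ± 0.20, adjusted p = 1.2e-06). CTSD was at 84053, 122478 and 75526 and with DCA at 161042, 206398 and 190597 (1.01 ± 0.13, adjusted p = 7.8e-06). Each of the 3 separated the groups, although the second control replicate was high in both CTSK and CTSD.

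LIPA was at 5841, 6265 and 4932 in the controls and at 8472, 9006 and 8318 with DCA (0.60 ± 0.07, adjusted p = 2.2e-06). Cathepsin B (CTSB), a broad cysteine protease, was at 17490, 19674 and 16298 and with DCA at 23424, 25999 and 25914 (0.50 ± 0.07, adjusted p = 1.6e-05). PSAP fell from 33398, 32637 and 29489 to 17804, 21714 and 23201 (-0.61 ± 0.08, adjusted p = 4.4e-06). These groups do not overlap either. GM2A, the activator that lifts GM2 ganglioside out of the membrane for its breakdown, rose (1.19 ± 0.24, adjusted p = 0.00062). TFEB was at 887, 987 and 936 with DCA, and its range overlaps that of the controls (0.20, 95% interval -0.02 to 0.42, adjusted p = 0.14). Of the 19 calls, those of SMPD1, HEXA, CTSC, ATP6V1H, LAMP2, GLA and PPT1 ended in at least 1 fit that left out a library, and leaving out a library gave 15 to 18 called. Against a null of a 1.2-fold change 8 were called.

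Beside the DCA effect at 48 h, 8 of 14 macrophage markers fell and 2 rose, with sums of 25262 to 32474 in the controls and 18570 to 23267 with DCA. Endothelial and red blood cell markers fell in 8 of 9 and 8 of 8 cases, and RPE and melanosome markers fell in 14 of 19 and rose in 1. The riser was MITF, which is also on the MiT/TFE list. The part of these cells in the calls was not tested. Of the other lysosomal genes 4 of 30 hydrolases rose and 7 fell, 4 of 24 membrane proteins rose and 7 fell, and 3 of 16 V-ATPase subunits rose and 2 fell. Of 23 autophagy genes 5 rose and 11 fell, and SQSTM1, at 7249, 6728 and 6919 with DCA, was among the risers (0.95 ± 0.07).

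Between 24 h and 48 h the DCA effect became more positive for 4 of the 37 genes and more negative for 0, where 2.67% of all genes tested had a more positive effect, 2.24% a more negative one and 4.91% differed in either direction. They were CTSD (1.06 ± 0.19, adjusted p = 0.0028), CTSB (0.64 ± 0.10, adjusted p = 0.0011), NPC2 (0.57 ± 0.16, adjusted p = 0.036) and LIPA (0.38 ± 0.10, adjusted p = 0.033). CTSD read 101637, 98759 and 90370 with DCA at 24 h, a range that overlaps the controls (-0.05, 95% interval -0.33 to 0.24, adjusted p = 0.86). NPC2 and LIPA lost the call in 9 and 8 of the 12 fits that left out a library, and against a null of a 1.2-fold change 1 was called.

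**Figure D4:**
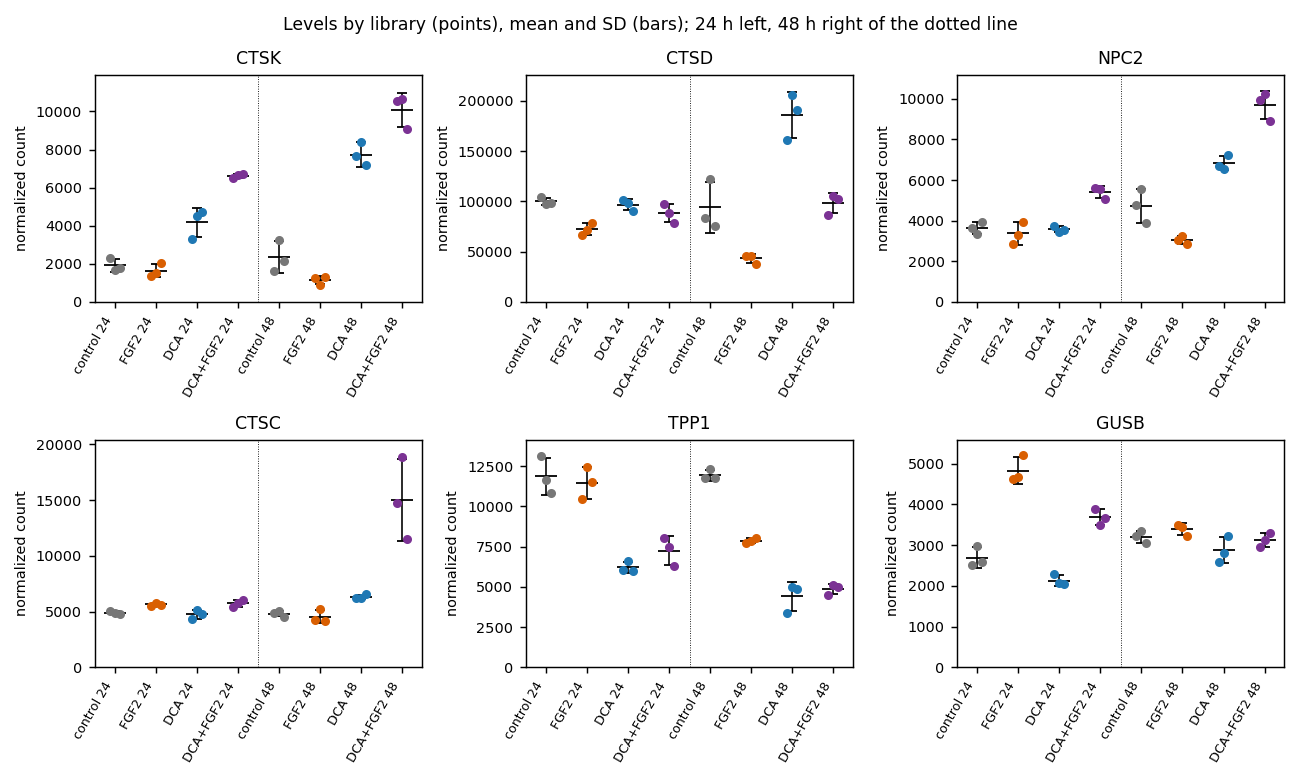
Normalized counts (vertical axis, starting at 0) of CTSK, CTSD, NPC2, CTSC, TPP1 and GUSB in each library (points) with the mean and SD (bars, n = 3) in the 8 groups (horizontal axis, 24 h left of the dotted line). CTSK is higher and TPP1 lower in all 4 groups with DCA than in the matching group without it. CTSC reaches 11536 to 18869 in the libraries with both agents at 48 h and at most 6538 in every other library, and GUSB is highest with FGF2 at 24 h.

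When DCA was given together with FGF2, the lysosomal genes were compared with FGF2 alone. At 24 h 10 of the 37 were higher and 5 lower, where 18.1% of all genes tested were called higher, 17.8% lower and 35.8% in either direction. The median log2 difference was 0.03, against -0.02 for all genes. Together 40.5% of the 37 were called, which is near the share of all genes tested. Of the 8 lipid-handling genes 5 were higher and 1 was lower. Of 8 proteases 2 were higher and 1 lower, and of 9 sugar-chain enzymes 2 and 1. Of 5 membrane proteins 1 was higher and 1 lower, and of 6 pump genes 0 and 1.

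CTSK was at 1348, 1543 and 2044 with FGF2 and at 6510, 6676 and 6705 with both agents (2.03 ± 0.20, adjusted p = 2.2e-07). NPC1, the membrane protein that moves cholesterol out of the lysosome, was at 4139, 4097 and 3909 and with both at 5169, 5168 and 5718 (0.40 ± 0.06, adjusted p = 3.5e-05). NPC2 was at 2864, 3310 and 3950 and with both at 5601, 5552 and 5063 (0.69 ± 0.11, adjusted p = 5.2e-05). All 3 separate the groups. LIPA was at 4910, 4559 and 4471 and with both at 6091, 5938 and 6398 (0.40 ± 0.07, adjusted p = 0.00018). GM2A was at 575, 516 and 499 and with both at 694, 1816 and 1404 (1.19 ± 0.24, adjusted p = 0.00056), where the first replicate with both agents lay far under the other 2. HEXA was higher too (0.40 ± 0.08, adjusted p = 0.00065). TPP1 was lower, at 10449, 12458 and 11513 with FGF2 and 8019, 7471 and 6279 with both (-0.66 ± 0.11, adjusted p = 0.0001). GUSB was lower too (-0.39 ± 0.08, adjusted p = 0.00095), at 3899, 3503 and 3667 with both agents. The calls of ARSB, PSAP, ATP6AP2 and LAMP2 ended in 3 to 5 of the 6 fits that left out a library, and against a null of a 1.2-fold change 4 of the 37 were called. Beside them 9 of 14 mesenchyme markers were higher and 0 lower, with sums of 83389 to 111681 with FGF2 and 135924 to 200753 with both. Of 14 macrophage markers 3 were higher and 6 lower, with sums of 6849 to 8746 and 7637 to 7892, and of 19 RPE and melanosome markers 1 was higher and 7 were lower. Their part was not tested.

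At 48 h DCA on top of FGF2 raised most of the list. Of the 37, 22 were higher and 1 was lower, where 25.4% of all genes tested were called higher, 27.4% lower and 52.8% in either direction. The median log2 difference was 0.31, against -0.04 for all genes, and 32 of 37 estimates were positive where 47.0% of all genes tested had a positive estimate. The 22 were 7 of 8 lipid-handling genes, 6 of 8 proteases, 4 of 5 membrane proteins, 2 of 6 pump genes, 2 of 9 sugar-chain enzymes and TFEB. This comparison, the FGF2 effect at 48 h and the interaction at 48 h tested below all use the same FGF2 libraries at 48 h. Low values in those libraries would enter all of them, so they are not independent.

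CTSK was at 1244, 898 and 1322 normalized counts with FGF2 and at 10554, 10640 and 9053 with both agents (3.14 ± 0.20, adjusted p = 4.7e-11). NPC2 was at 3047, 3238 and 2876 and with both at 9955, 10221 and 8913 (1.67 ± 0.11, adjusted p = 7.2e-11). Cathepsin C (CTSC), a dipeptidyl peptidase that activates the serine proteases of immune granules, was at 4255, 5209 and 4186 and with both at 14704, 18869 and 11536 (1.70 ± 0.11, adjusted p = 9.6e-11). The groups lie far apart in all 3, and CTSC varied most among the libraries with both agents.

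HEXA, which takes part in the breakdown of gangliosides, was at 1699, 1676 and 1509 with FGF2 and at 3426, 3152 and 3364 with both agents (1.03 ± 0.08, adjusted p = 1.4e-09). CTSB was at 14192, 14069 and 12821 and with both at 22684, 23832 and 23178 (0.76 ± 0.07, adjusted p = 1e-08). LIPA was at 4185, 4617 and 4181 and with both at 7094, 7442 and 7183 (0.74 ± 0.07, adjusted p = 2.3e-08). These groups do not overlap. GM2A (1.80 ± 0.24), CTSD (1.19 ± 0.13), the acid sphingomyelinase SMPD1 (0.82 ± 0.08), CTSZ (0.72 ± 0.08), PPT1 (0.70 ± 0.09), the lysosomal calcium channel MCOLN1 (0.51 ± 0.07) and SCARB2, which carries glucocerebrosidase to the lysosome (0.40 ± 0.06), were higher as well, with adjusted p of 3e-06 or less except for SCARB2 (2.2e-05).

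TPP1 was the 1 gene that fell, at 7702, 7868 and 8047 with FGF2 and 4503, 5096 and 4986 with both (-0.70 ± 0.11, adjusted p = 2.2e-05). Of the pump genes ATP6V1B2 (0.31 ± 0.05) and ATP6V1A (0.21 ± 0.05) were higher, and the other 4 ran from -0.13 to 0.20 and were not called. TFEB was at 986, 1067 and 981 with both agents against 724, 904 and 891 with FGF2 (0.27 ± 0.10, adjusted p = 0.03). Its groups do not overlap, but the call ended without the first FGF2 replicate or the second replicate with both agents (adjusted p up to 0.2). The calls of ARSB, CTSA and LAMP3 also ended in 3 or 4 of the fits that left out a library. LAMP3 read 120, 163 and 216 with both agents. Against a null of a 1.2-fold change 14 of the 37 were called.

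The comparisons of DCA without and with FGF2 use different libraries, so their calls can be set side by side. At 48 h all 9 genes raised by DCA alone were among the 22 raised on top of FGF2, which is 100% of the first list and 40.9% of the second. At 24 h the same held for 5 of 5, 50% of the 10. The overlap was not counted over all genes tested, so these shares are not read as particular to the lysosomal genes. Of the 10 genes lowered by DCA alone at 48 h, TPP1 was lowered with FGF2 too, and CTSA and PPT1 were raised.

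**Figure D5:**
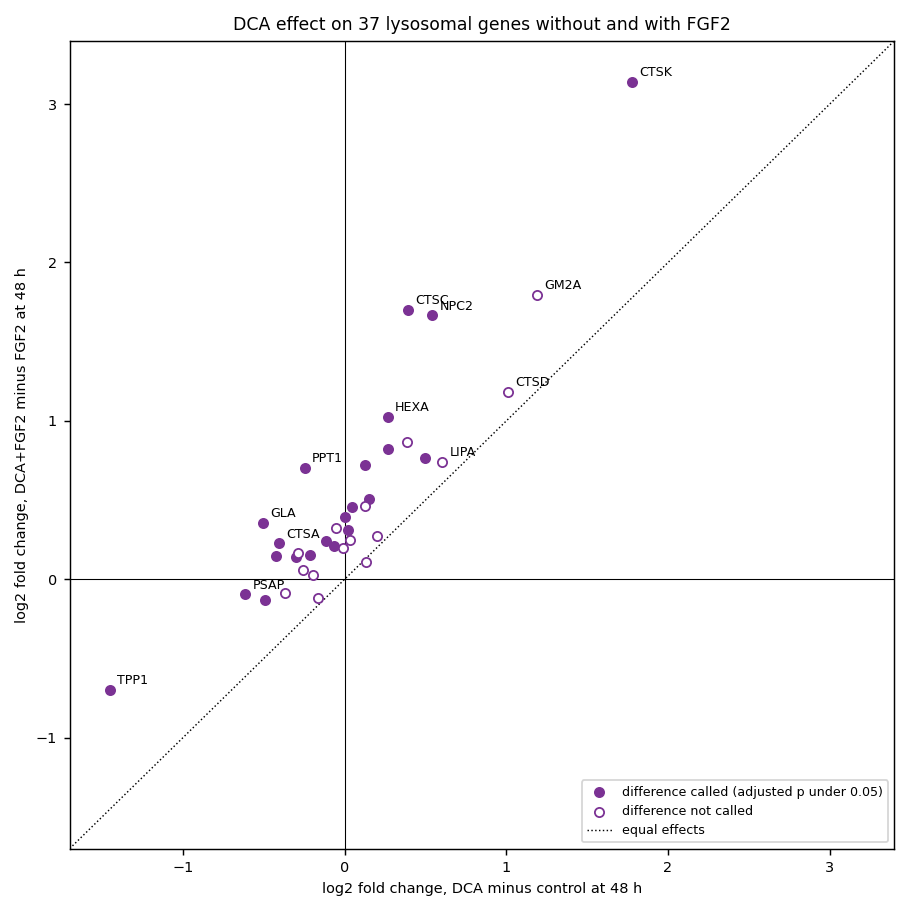
Log2 fold change of DCA at 48 h without FGF2 (horizontal axis) and on top of FGF2 (vertical axis) for each of the 37 genes. Filled points have a difference between the effects with an adjusted p under 0.05, and the dotted line marks equal effects. All but 1 of the points lie above the line, and CTSK, CTSC and NPC2 lie farthest from it among the filled points.

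The difference between the DCA effects with and without FGF2, the interaction, was tested in the same model. At 24 h it was positive for 2 of the 37 genes and negative for 0, where 1.68% of all genes tested were called positive and 2.92% in either direction. They were NPC2 (0.72 ± 0.16, adjusted p = 0.013) and ATP6V0D1 (0.40 ± 0.10, adjusted p = 0.032). The latter lost the call in 8 of the 12 fits that left out a library, and against a null of a 1.2-fold change 0 were called.

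At 48 h the interaction was positive for 22 of the 37 genes and negative for 0, where 15.1% of all genes tested were called positive and 30.1% in either direction. The median was 0.38, against 0.01 for all genes, and 36 of 37 estimates were positive, where 50.9% of all genes tested had a positive estimate. It was called for 5 of 6 pump genes, 6 of 8 proteases, 5 of 8 lipid-handling genes, 3 of 5 membrane proteins and 3 of 9 sugar-chain enzymes, and not for TFEB (0.07, 95% interval -0.23 to 0.38, adjusted p = 0.76). A positive interaction need not be a rise on top of FGF2. Of the called genes TPP1 was lowered there, and GLA, GLB1, PSAP, ATP6V0D1, ATP6V1H and ATP6AP2 were not called. Each of these was called lower at 48 h both with DCA alone and with FGF2 alone. Those comparisons and the interaction use the same control libraries at 48 h. High values in the control libraries would enter all of them, so these calls are not independent. In CTSC the DCA effect went from 0.39 without FGF2 to 1.70 with it (difference 1.31 ± 0.16, adjusted p = 4.2e-06). In NPC2 it went from 0.54 to 1.67 (1.12 ± 0.16, adjusted p = 1.5e-05), and in HEXA from 0.27 to 1.03 (0.76 ± 0.12, adjusted p = 4.8e-05).

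In some genes the sign turned. PPT1 was lower with DCA alone, at 4472, 5139 and 4552 against 5639, 5297 and 5840 in the controls (-0.25), and higher with DCA on top of FGF2, at 5303, 5466 and 5015 against 2775, 3788 and 3199 (0.70). The difference was 0.95 ± 0.12 (adjusted p = 8e-06). The lower call with DCA alone (adjusted p = 0.034) ended in 4 of the 6 fits that left out a library, with adjusted p up to 0.12, while the difference kept its call in each such fit. CTSA was lower with DCA alone (-0.40) and higher on top of FGF2 (0.23), with a difference of 0.63 ± 0.12 (adjusted p = 0.00035). For CTSA the call with both agents was among those that ended when a library was left out, while the difference itself kept its call in every such fit. CTSD and GM2A were raised in both settings, and their differences were not called (0.18, 95% interval -0.22 to 0.58, and 0.60, 95% interval -0.11 to 1.32). CTSB lost its call in 8 of the 12 fits that left out a library and ATP6V1H in 2. Against a null of a 1.2-fold change 9 of the 37 were called.

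The wider pathway was counted again for DCA added to FGF2 at 48 h. Of 30 other hydrolases 15 were higher and 3 lower, and of 24 other membrane proteins 11 and 6. Of 16 other V-ATPase subunits 8 were higher and 0 lower, and of 23 autophagy genes 10 and 2. Of 15 genes of enzyme delivery 3 were higher and 3 lower, and of 13 MiT/TFE and nutrient-sensing genes 3 and 2. Among all genes tested 25.4% were higher and 27.4% lower. SQSTM1 was at 5200, 5281 and 5518 with both agents and at 1811, 1790 and 1829 with FGF2 (1.56 ± 0.07, adjusted p = 5.9e-13). Galactocerebrosidase, GALC (1.49 ± 0.11), the asparagine-specific protease legumain, LGMN (0.94 ± 0.07), the tetraspanin CD63 (1.06 ± 0.08) and the pump subunit ATP6V1C2 (1.76 ± 0.17) were higher. The interaction was positive for 16 of the 30 hydrolases and negative for 3, and for the 16 V-ATPase subunits 6 and 0. It was positive for 7 of the 24 membrane proteins and negative for 1, and for the 23 autophagy genes 11 and 1. For the 15 genes of enzyme delivery the counts were 2 and 1, and for the 13 MiT/TFE and nutrient-sensing genes 1 and 1. Over all genes tested the interaction was positive for 15.1% and called in either direction for 30.1%. MITF was higher in both settings, by 0.66 ± 0.12 with DCA alone (adjusted p = 0.00027) and by 0.65 ± 0.12 on top of FGF2 (adjusted p = 0.00011). In normalized counts MITF was at 1335, 1385 and 1129 in the controls at 48 h, 2087, 2164 and 1814 with DCA, 915, 800 and 805 with FGF2 and 1323, 1249 and 1380 with both.

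CTSK and CTSC are also known from cells other than RPE, CTSK from osteoclasts and CTSC from leukocytes, so those markers were read beside them. Macrophage markers were lower with DCA added to FGF2 at 48 h in 7 of 14 cases and higher in 2, with sums of 9391 to 12625 against 11383 to 12959 with FGF2 alone. The macrophage receptor CSF1R was at 1960, 1946 and 2068 with FGF2 and at 539, 606 and 721 with both agents (-1.69 ± 0.18, adjusted p = 6e-08). Over the 14 markers the log2 differences ran from -1.90 to 1.21, so CSF1R does not stand for the list. With DCA alone at 48 h 8 of 14 fell and 2 rose. Of 5 osteoclast markers tested 3 were higher and 1 lower with DCA added to FGF2 at 48 h. Of the 7 with a row 2 were under the filter, DCSTAMP with 0 to 6 and CALCR with 0 to 36 normalized counts in any library. With DCA alone at 48 h 1 of the 5 rose, the matrix protease MMP9 (4.11 ± 0.25, adjusted p = 6e-10), and 2 fell. Summed, the 7 markers ran from 39088 to 46761 in the controls and from 17539 to 29900 with DCA, and from 181796 to 202025 with FGF2 and from 68873 to 101157 with both. With FGF2 alone at 48 h 2 of the 5 tested rose and 3 fell, so the sum and the calls did not move together. The sum is therefore not read as a level of osteoclasts. The part of macrophages and osteoclasts in the CTSC and CTSK values was not tested.

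Mesenchyme markers moved with the lysosomal genes: 13 of 14 were higher and 0 lower when DCA was added to FGF2 at 48 h, with sums of 138740 to 167388 against 61138 to 72068, and the interaction was positive for 14 of 14, as it was for 7 of 9 endothelial markers. With DCA alone at 48 h 0 rose and 4 of 14 fell. When DCA was added to FGF2, 4 of 19 RPE and melanosome markers rose and 7 fell, and their sum was 50942 to 56821. Of 11 neural retina progenitor markers 0 rose and 9 fell, with sums of 63479 to 73293 against 109886 to 115235 with FGF2 alone. Their interaction was negative for 8 of 11 and positive for 0. The part of these cells in the lysosomal changes was not tested.

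Some of the list were seldom or never called, which does not show that they did not change. Iduronidase (IDUA) and iduronate sulfatase (IDS), which take apart heparan and dermatan sulfate, were called in 0 of the 11 comparisons, and NAGLU, a heparan sulfate enzyme, in 1. IDS ran from 501 to 893 normalized counts over all 24 libraries and IDUA from 1438 to 2460. The highest group mean of IDUA was 1.45 times its lowest. TFEB ran from 724 to 1067 and was called in 1 comparison. At 24 h it was at 724, 841 and 859 in the controls, 931, 728 and 777 with FGF2, 897, 883 and 918 with DCA and 741, 751 and 771 with both. The first pair of groups overlap, while the DCA libraries all lay above the controls without a call. CTSH was called in the FGF2 comparisons alone and in 0 of those of DCA. Its log2 change with DCA lay between 0.03 and 0.13 in the 4 comparisons of DCA, and for DCA alone at 48 h the 95% interval was -0.22 to 0.49.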

How the data were processed

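PolyA RNA of 24 libraries was sequenced. Per the labels' protocols, the directional library kit started from 100 ng RNA and used 13 PCR cycles. The submitters' processing notes name DESeq2 (1.34.0), StringTie (2.1.4), STAR (2.7.5b), Trim Galore (0.6.4) and the build GRCg6a, without stating the role of each. The table used holds normalized counts as deposited by the authors: gene counts divided by a size factor per library, a coverage-like signal. Dividing by the step of each column gave reads that were whole within 0.001. No 2 libraries were identical, and 0 columns were without a sample.

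Genes with a mean of at least 10 were tested with limma 3.58.1 in R 4.3.3, with trend, on log2(normalized count + 1), in 1 model of 8 group means with 16 residual degrees of freedom. Benjamini-Hochberg adjustment ran over all genes tested, and 95% intervals use those 16 degrees of freedom. The fit was also run on simulated counts. These had an equal dispersion for every gene and changes in the FGF2 libraries at 24 h alone. Error rates in the real data are not known from them. edgeR 4.0.16 and DESeq2 1.42.0 on recovered reads were alternatives, with other pseudocounts, filters, scalings, a replicate block, the compared groups alone, a 1.2-fold null and each library left out. Leaving out both deepest libraries was chosen after seeing the data, and it ended 19 of the 125 calls it bears on.

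The members, pathway lists and marker lists were chosen with earlier results of these data known. Every member may be named. By rule, library values are given for up to 6 called members with the smallest adjusted p in a comparison and for TFEB. Further library values (CTSH and GUSB with FGF2 at 48 h, CTSD with DCA at 24 h, GUSB with both agents at 24 h, and TPP1 and LAMP3 with both at 48 h) were chosen after they were seen. Up to 4 called genes per list are named by the smallest adjusted p. Labels give biological replicates. They do not say whether the replicate numbers mark a shared batch. Over 36 same-numbered pairs the deviations from group means correlated at r = -0.0917 to 0.0974. This shows no large shared signal but cannot exclude pairing.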

Additional observations from a re-analysis of the deposited data

Results flagged for a closer look

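The FGF2 effect differed between 24 h and 48 h for 24 of the 37 lysosomal genes, by a test of the difference itself. Of all genes tested 30.2% differed. Among genes whose FGF2 effect was called in opposite directions at the 2 times, LAMP2 differed by -0.90 and GLB1 by -0.84 on the log2 scale. The DCA effect differed between the times for 4 of the 37 genes, where 4.91% of all genes tested differed.

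The DCA effect also differed between explants without and with FGF2, by the interaction test, for 2 genes at 24 h and 22 genes at 48 h. Over all genes tested the interaction was called for 2.92% at 24 h and 30.1% at 48 h. Among genes lowered by DCA alone and raised by DCA on top of FGF2 at 48 h, PPT1 differed by 0.95 and CTSA by 0.63. Groups of 3 libraries were not searched for single outlying libraries.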

How the results depend on the processing

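Over all alternatives 0 of the 181 called values of members changed direction, and 43 lost the call when at least 1 library was left out. The model on the compared groups alone ended 21 of the 181 calls. Apart from leaving out a library, counts of called members moved by over 1.5 times only against a null of a 1.2-fold change. They were then 2 for FGF2 at 24 h, 3 for DCA at 24 h, 8 for DCA at 48 h, 4 for DCA added to FGF2 at 24 h and 14 at 48 h. For the interaction they were 0 at 24 h and 9 at 48 h, for time in the controls 1, for the change in the FGF2 effect 9 and for that in the DCA effect 1. FGF2 at 48 h kept 19. No share of all genes tested is set beside the counts under these other settings, here or above, so they do not show an excess over the background.

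Leaving out 1 library gave 8 to 11 for FGF2 at 24 h, 26 to 29 at 48 h, 12 to 14 for DCA at 24 h and 15 to 18 at 48 h. It gave 11 to 15 for DCA added to FGF2 at 24 h and 20 to 22 at 48 h, 1 to 3 for the interaction at 24 h and 20 to 23 at 48 h, 9 to 15 for time in the controls, 21 to 27 for the change in the FGF2 effect and 2 to 5 for that in the DCA effect.

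With the replicate block the counts were 11, 28, 15, 20, 15 and 23 for FGF2, DCA and DCA added to FGF2 at 24 h and 48 h each, 2 and 21 for the interaction, 14 for time in the controls, 24 for the change in the FGF2 effect and 5 for that in the DCA effect. Whether the replicate numbers pair the libraries is not known. LAMP3 was not tested with a mean of at least 100. With 3 libraries a group, small changes of low genes such as LAMP3 have wide intervals.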
